A study of Mus musculus with 36 samples.

Results

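The hypoxia response genes described here were 10 genes, Hif1a, Egln1, Egln3, Vegfa, Adm, Bnip3, Pdk1, Ankrd37, Ndrg1 and Ddit4, taken as a named list with every probe set annotated to one of these symbols alone. They held 24 of the 45037 probe sets on the array other than controls, and 10 of the 18193 genes with such an annotation. All 24 probe sets passed the filter on low values, as did 27256 probe sets and 12970 genes of the whole array. RNA was hybridised to 36 Affymetrix mouse arrays, 3 for each of 12 groups, all from C57BL/6 embryos taken after timed matings, to follow gene expression while the heart is divided into chambers and then matures. The groups, named by embryonic day (E), were atrial chambers of E12.5, E13.5 and E14.5, followed by E16.5 and E18.5, and both ventricles of the same days. At E11.5 and E10.5 the sample was the middle stretch of the embryo, heart included and both ends removed, although their source field calls them whole heart. The E16.5 arrays carry day 15.5 in their description, and the day of the title was used. The labels name no altered gene, drug or change of oxygen in any group, and they do not say whether the 3 arrays of a group came from different litters or pools, so a p-value covers only the variation among these arrays, which may be technical.

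These genes belong to the cellular response to low oxygen. Where oxygen is available, prolyl hydroxylases of the Egln family mark the HIF-1α protein made from Hif1a, and it is destroyed through the Vhl ubiquitin ligase. Where oxygen is scarce the protein lasts, pairs with Arnt and binds gene promoters at a short core sequence, ACGTG or GCGTG. Because oxygen acts on the protein, the level of Hif1a RNA is not a measure of HIF activity. Among the known targets are the hydroxylases themselves, secreted factors that act on vessels, enzymes and mitochondrial proteins that lower oxygen use, and a brake on growth signalling. In the embryo, Vegfa from heart muscle acts on the endocardium and on the growing coronary vessels, and Adm is needed for vascular and heart development.

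Of the 10 genes, 9 had a promoter in the RefSeq table of mouse build GRCm38.p6, with 11 promoters between them. Ndrg1 (chromosome 15, 66929318 to 66969641) had none there. The 250 bases before each start were searched on both strands for ACGTG and for GCGTG. Of the 11 promoters, 9 held at least 1 of the motifs, which covers each of the 9 genes, against 38.6% of all 32851 promoters in the table and 44% of those of protein-coding genes. With the 50 bases after the start included, the window planned first, 9 of the 11 held one as well, against 43.8% of all promoters. In the 250 bases, ACGTG was in 7 of the 11, against 16.6% of all promoters, and GCGTG was also in 7, against 28.2%. The 2 promoters without a motif belong to genes with 2 starts in the table, and are that of the upstream start of Vegfa and that of the downstream start of Pdk1. So Vegfa held motifs only before its downstream start, in a window inside the span of the gene (46016993 to 46032377). Seen from the upstream start, whose own window held 0 motifs, this window lies within the transcribed stretch. Whether it acts as a promoter was not tested, so the count of 9 genes includes Vegfa only through this window. The windows of Ankrd37 and Hif1a also lie inside the span of their gene. A match describes letters and does not show a bound site. Bnip3 held the most matches, 5, and Ankrd37 held 4. In Bnip3 and in Hif1a a pair of ACGTG matches on opposite strands lay in 1 palindrome, CACGTG, which is also the E-box read by other factors. The promoters shown belong to the genes on which the results turn. They are those of Bnip3, Adm and Vegfa, whose chambers did not overlap at any of the 5 ages, Ankrd37, whose chambers were apart at 3 ages, Egln3, which rose most with age among the brightest probe sets, and Hif1a, which fell. The chambers were also apart at 4 ages for Pdk1, which is not shown, and at 3 for Hif1a. How many of all genes were without overlap between 3 and 3 arrays was not counted, here or below. Both starts of Vegfa are given, since they differ in the motif. Capitals mark the motifs. On the printed strand CACGT and CACGC are the complements of ACGTG and GCGTG read from the other strand.
Bnip3, chr7:138909507-138909756, minus strand: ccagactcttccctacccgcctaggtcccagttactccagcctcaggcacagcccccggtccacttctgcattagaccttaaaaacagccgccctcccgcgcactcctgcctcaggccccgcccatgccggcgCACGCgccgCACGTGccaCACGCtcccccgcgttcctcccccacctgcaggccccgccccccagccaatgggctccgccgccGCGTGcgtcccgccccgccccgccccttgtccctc
Adm, chr7:110627407-110627656, plus strand: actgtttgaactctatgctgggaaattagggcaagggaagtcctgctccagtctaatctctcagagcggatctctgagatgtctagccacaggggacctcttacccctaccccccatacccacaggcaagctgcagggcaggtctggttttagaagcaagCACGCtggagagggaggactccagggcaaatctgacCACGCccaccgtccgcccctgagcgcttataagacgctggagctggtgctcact
Vegfa, downstream start, chr17:46025164-46025413, minus strand: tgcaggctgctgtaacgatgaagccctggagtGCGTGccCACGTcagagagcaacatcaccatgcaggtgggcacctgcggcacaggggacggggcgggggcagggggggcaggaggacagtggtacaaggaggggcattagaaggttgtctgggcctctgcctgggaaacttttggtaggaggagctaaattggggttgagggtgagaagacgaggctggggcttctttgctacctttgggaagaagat
Vegfa, upstream start, chr17:46032378-46032627, minus strand: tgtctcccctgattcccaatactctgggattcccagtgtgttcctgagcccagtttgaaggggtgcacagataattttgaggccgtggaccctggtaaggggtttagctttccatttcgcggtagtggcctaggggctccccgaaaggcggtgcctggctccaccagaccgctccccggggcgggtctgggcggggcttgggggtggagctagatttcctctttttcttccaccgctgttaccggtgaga
Ankrd37, chr8:45999851-46000100, minus strand: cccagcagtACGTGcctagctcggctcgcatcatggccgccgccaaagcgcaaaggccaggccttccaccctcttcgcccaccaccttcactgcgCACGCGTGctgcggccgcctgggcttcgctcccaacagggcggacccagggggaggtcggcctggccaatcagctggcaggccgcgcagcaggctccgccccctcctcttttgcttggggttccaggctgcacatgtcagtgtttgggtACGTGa
Egln3, chr12:54203875-54204124, minus strand: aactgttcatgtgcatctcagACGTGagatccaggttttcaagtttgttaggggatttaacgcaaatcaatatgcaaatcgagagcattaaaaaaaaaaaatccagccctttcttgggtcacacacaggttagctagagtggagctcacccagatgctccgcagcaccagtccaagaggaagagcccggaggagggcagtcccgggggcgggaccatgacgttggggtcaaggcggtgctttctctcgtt
Hif1a, chr12:73907617-73907866, plus strand: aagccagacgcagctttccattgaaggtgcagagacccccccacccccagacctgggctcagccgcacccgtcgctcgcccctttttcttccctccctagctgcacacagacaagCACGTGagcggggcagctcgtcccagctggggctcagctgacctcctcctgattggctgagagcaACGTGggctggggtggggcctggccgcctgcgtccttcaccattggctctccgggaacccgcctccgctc

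Atria and ventricles were first checked by chamber markers. Sln, an atrial regulator of the calcium pump, was between 2190.0 and 15577 on the atrial arrays and between 11.1 and 1789 on the ventricular arrays. Irx4, a ventricular transcription factor, was below 50 on 9 of 15 atrial arrays, against 1485 to 1964.5 on the ventricular arrays, but the 3 atrial arrays of E14.5 had 1281, 792.5 and 137. Atrial array 2 of E12.5 had 433, atrial array 2 of E16.5 had 356 and atrial array 1 of E18.5 had 492. The ventricular markers Hey2 and Myl2 overlapped between chambers. Hey2 was 100.3 to 2016 on atrial arrays, against 1263 to 2966 on ventricular arrays. Myl2 was 593.6 to 20031 on atrial arrays, against 14090 to 25225 on ventricular arrays. Atrial array 2 of E16.5 had 16782 for Myl2, above all ventricular arrays of that day, and atrial array 1 of E12.5 had 7827 with Irx4 at 32. Arrays within a group correlated at 0.941 to 0.9836. Atrial array 3 of E13.5, E16.5 and E18.5 was high in lung and foregut genes, with sums up to 12894 over 6 genes. Atrial array 2 of E12.5 and ventricular array 2 of E16.5 were high in liver genes, with sums of 18975 and 11468 over 7 genes. The comparisons of the 10 genes were recomputed without these arrays.

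Most of the 10 genes were lower in atria than in ventricles, and Adm alone was higher. Over the mean of the 5 ages, 8 were lower in atria, 1 was higher and 1, Ndrg1, was not called, by limma with an adjusted p below 0.05. Of all 12970 genes, 46.6% were called in this comparison, 22.6% lower and 24% higher in atria. The median log2 difference of the 10 genes was -0.43, against -0.003 over all genes. The lower genes included the vessel growth factor Vegfa, the mitochondrial protein Bnip3, the ankyrin repeat protein Ankrd37, the metabolic kinase Pdk1 and both hydroxylases. As this is bulk tissue, fewer cells that express a gene cannot be told apart from less RNA per cell.

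**Figure D1:**
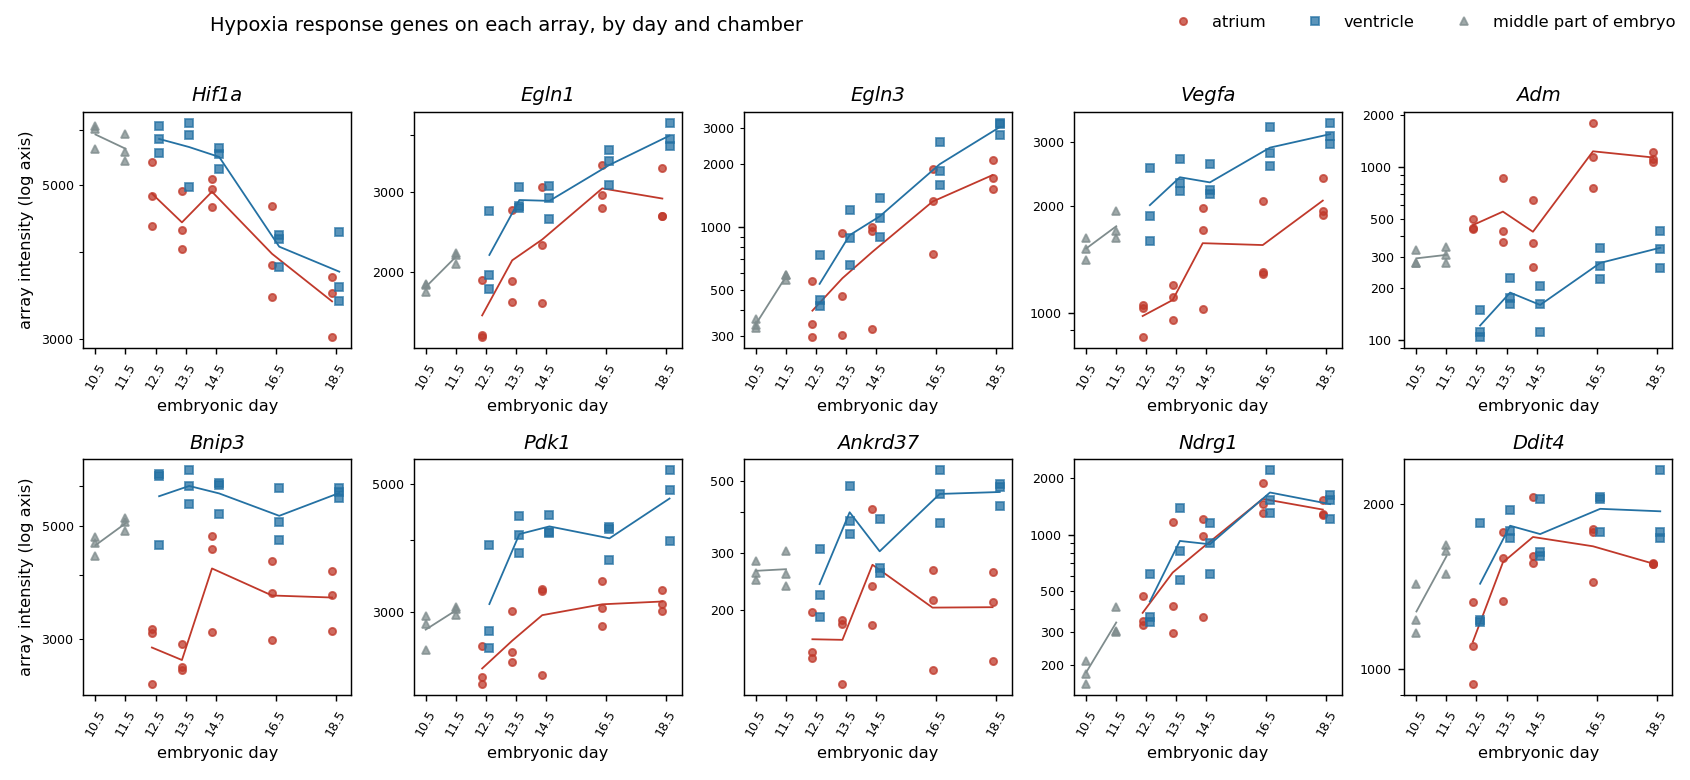
Array intensity (log axis) of the 10 hypoxia response genes on each of the 36 arrays against embryonic day, from each gene's brightest probe set. Red circles are atria, blue squares are ventricles, grey triangles are the middle part of the embryo, and lines join group means. Atrial Adm lies above ventricular Adm at all 5 ages, atrial Bnip3 and Vegfa lie below, Egln3 and Ndrg1 rise with age in both chambers and Hif1a falls.

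Bnip3, a protein of the outer mitochondrial membrane that takes part in the removal of mitochondria, separated the chambers most cleanly. Its intensity was 2435, 3110.1 and 4778 (lowest, median and highest) on the 15 atrial arrays, against 4591, 5942 and 6456 on the 15 ventricular arrays. All but 1 of the atrial arrays were below every ventricular array. Such counts over the 15 atrial and 15 ventricular arrays were not made over all genes, here or for the genes below. At E13.5 the atria had 2600.4, 2928 and 2633, against 5543, 6456 and 6017 in the ventricles. At E14.5 atrial arrays 1, 2 and 3 had 4778, 4515 and 3086, against 5292, 6079 and 6043 in the ventricles, so the 2 atrial arrays with the most Irx4 were also those with the most Bnip3. The groups did not overlap at any of the 5 ages. The mean difference was -0.77 ± 0.06 on the log2 scale (SE, adjusted p = 4.91e-11), or 1.71-fold lower in atria. It was -0.90 without E14.5 and without the 3 other atrial arrays with Irx4 above 100.

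Vegfa, the secreted growth factor for endothelial cells, had 858, 1288 and 2379.9 on the atrial arrays (lowest, median and highest), against 1597, 2573 and 3399.8 on the ventricular arrays. At E12.5 the atria had 858, 1038 and 1054, against 1872, 2546 and 1597 in the ventricles. At E18.5 the atria had 2379.9, 1885 and 1929, against 3124, 3399.8 and 2967 in the ventricles. The chambers did not overlap at any of the 5 ages, and across ages 9 of 15 atrial arrays were below every ventricular array. The mean difference was -0.85 ± 0.08 (adjusted p = 1.21e-09), and the second Vegfa probe set gave -0.93.

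Adm encodes adrenomedullin, a secreted peptide that widens vessels and supports lymphatic and blood vessel growth. It went the other way. It had 262, 641 and 1800.1 on the atrial arrays, against 103, 205 and 427 on the ventricular arrays (lowest, median and highest). At E12.5 the atria had 501, 438 and 445, against 112, 148 and 103 in the ventricles. At E16.5 the atria had 1800.1, 1140.2 and 760.5, against 226, 269 and 341 in the ventricles. On this probe set no age showed overlap, and 11 of 15 atrial arrays were above every ventricular array. The mean difference was 1.64 ± 0.13 (adjusted p = 1.84e-11), 3.11-fold higher in atria. The second Adm probe set, whose name ends in _x_at and whose probes may share sequence with other transcripts, gave a smaller difference, 0.78 ± 0.10 (adjusted p = 4.73e-07). Its chambers overlapped and it was not called at E12.5 (0.29, adjusted p = 0.495) or at E14.5 (0.27, adjusted p = 0.527).

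Ankrd37, a small ankyrin repeat protein induced by HIF-1, separated the chambers at 3 of 5 ages. It had 118, 187 and 410.2 on the atrial arrays, against 190.5, 377 and 540.0 on the ventricular arrays. The highest atrial value was array 1 of E14.5, the atrial array with the most Irx4. The mean difference was -0.84 ± 0.11 (adjusted p = 4.86e-07), and -1.05 without E14.5 and the 3 other atrial arrays with Irx4 above 100. Pdk1, a kinase that turns off pyruvate dehydrogenase and so keeps pyruvate out of the mitochondrial cycle, had 2246, 3007 and 3395 on the atrial arrays, against 2596, 4114 and 5276 on the ventricular arrays. Its chambers were apart at 4 of 5 ages. Its mean difference was -0.49 ± 0.06 (adjusted p = 4.62e-08), and its 4 probe sets gave values between -0.61 and -0.49.

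The hydroxylases Egln1 and Egln3 mark HIF-1α for destruction and are themselves HIF targets. Egln1 had 1439, 2654 and 3439 on the atrial arrays, against 1840.2, 3078 and 4251 on the ventricular arrays, and its mean difference was -0.37 ± 0.07 (adjusted p = 0.000158). Egln3 had 295, 934 and 2096 on the atrial arrays, against 418, 1202 and 3159 on the ventricular arrays, and its mean difference was -0.66 ± 0.16 (adjusted p = 0.00118). Both pairs of ranges overlapped, and both genes rose with age. Within single ages the brightest Egln3 probe set was not called at any of the 5, with differences from -0.78 to -0.41, and its chambers were apart only at E18.5. At E18.5 its second probe set was called (-1.01, adjusted p = 0.0201), and Egln3 was also called there with array weights (adjusted p = 0.023), with the mean of probe sets (0.0446) and with only the groups compared (0.00137).

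Hif1a itself, the oxygen-regulated subunit, differed little. It had 3014, 4363 and 5382 on the atrial arrays, against 3402, 5259 and 6137 on the ventricular arrays, and its mean difference was -0.19 ± 0.05 (adjusted p = 0.00114). Of its 3 other probe sets, 1 gave -0.58 (adjusted p = 4.93e-07), 1 gave -0.11 (adjusted p = 0.115) and 1 gave -0.07 (adjusted p = 0.781), so the size of the Hif1a difference depends on the probe set. Ddit4, an inhibitor of the growth kinase mTORC1, was lower in atria, at -0.22 ± 0.07 (adjusted p = 0.00785), a call that was lost with each array centred on its median (-0.21, adjusted p = 0.0582). Ndrg1, a stress-responsive protein of membrane traffic, was not called on any of its 5 probe sets. Its difference was -0.24 ± 0.17 (adjusted p = 0.252), with a 95% interval of -0.59 to 0.10.

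**Figure D2:**
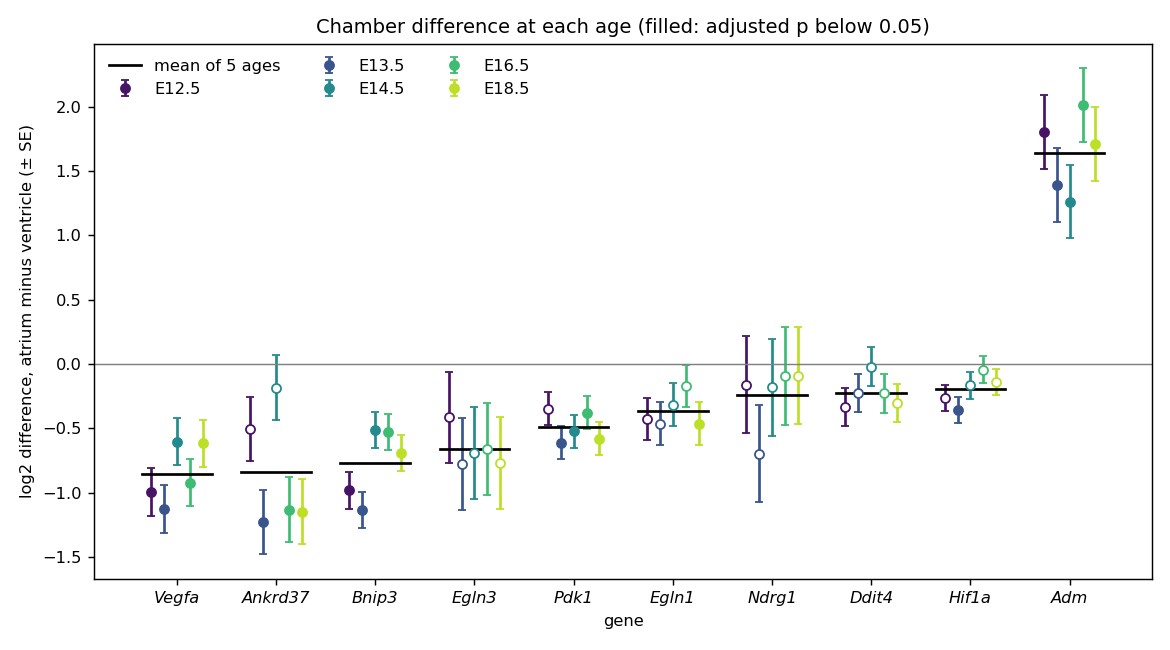
Log2 difference, atrium minus ventricle, of each gene at each of the 5 ages (points, with SE from the fit) and their mean (black lines). Filled points have an adjusted p below 0.05. Adm lies between 1.26 and 2.01, and every point of the other 9 genes is below 0, although single-age values of Ndrg1, Ddit4, Hif1a and Ankrd37 turned sign under other settings or without 1 array.

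At single ages fewer of the genes were called. At E12.5, 2 genes were lower in atria and 1 higher (all genes, 6.07% and 5.22%). At E13.5, 5 were lower and 1 higher (7.81% and 6.72%), at E14.5, 3 and 1 (2.37% and 5.11%), at E16.5, 4 and 1 (8.7% and 10.9%), and at E18.5, 5 and 1 (9.79% and 12.9%). Adm was the higher gene each time. Its difference ranged between 1.26 (E14.5) and 2.01 (E16.5), with 1.81, 1.39 and 1.71 for E12.5, E13.5 and E18.5. Vegfa and Bnip3 were called at all 5 ages. The Vegfa difference lay between -1.13 at E13.5 and -0.60 at E14.5, and that of Bnip3 between -1.14 at E13.5 and -0.51 at E14.5. Pdk1 was called from E13.5 on, Ankrd37 at E13.5 (-1.23) and again in the E16.5 (-1.13) and E18.5 (-1.15) pairs, Hif1a at E13.5 (-0.36) and Egln1 at E18.5 (-0.46).

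Several of these single-age calls were lost when 1 array was left out, in some cases whichever of several arrays it was. At E14.5, Vegfa and Bnip3 were not called without any 1 of the 3 ventricular arrays or without atrial array 3 (adjusted p up to 0.36 and 0.251), Adm without ventricular array 1 or atrial array 2 (up to 0.0754), and Pdk1 without atrial array 3 (0.143). At E16.5, Bnip3 was not called without ventricular or atrial array 3 (up to 0.0805), nor Pdk1 without array 2 or 3 of either chamber (up to 0.141). At E13.5, Hif1a was not called without ventricular or atrial array 2 or 3 (up to 0.116). At E18.5, Vegfa was not called without ventricular array 2 or atrial array 2 or 3 (up to 0.0728), nor Egln1 without any of 5 of the 6 arrays (up to 0.164). Leaving out 1 array also gave new calls, for Egln1 and Hif1a when atrial array 3 of E12.5 was dropped (adjusted p = 0.0357 and 0.0455), for Pdk1 when ventricular array 3 of that day was dropped (0.0379), and for Egln1, Egln3 and Ndrg1 at E13.5 without atrial array 2 (0.013, 0.0375 and 0.0264).

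With age, most of the 10 genes rose in both chambers on their brightest probe sets, while Hif1a RNA fell. Between E18.5 and E12.5 in ventricles, 8 of the 10 genes were higher at E18.5 and 1, Hif1a, was lower, where 14.7% of all genes were higher and 16.9% lower. In atria 7 were higher and 1, Hif1a again, was lower, where 14.7% of all genes were higher and 12.8% lower. The median difference of the 10 genes was 0.78 in ventricles and 0.66 in atria, against -0.03 and 0.02 over all genes. Bnip3 was called in neither chamber, and Ankrd37 was not called in atria. Bnip3 was called higher in E18.5 atria with quantile normalization (0.36, adjusted p = 0.0491) and without the 3 atrial arrays high in lung genes (0.43, adjusted p = 0.0451).

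Among the brightest probe sets, Egln3 had the largest change. In ventricles it averaged 533 at E12.5, then 914 at E13.5 and 1124 at E14.5, and reached 2002 at E16.5 before 3017 at E18.5. In atria it averaged 396, 568, 760.0, 1324 and 1775 at the same days. At E18.5 the ventricles had 3122, 3159 and 2769.8, against 418, 738 and 444 at E12.5. At E18.5 the atria had 2096, 1714 and 1515, against 552, 295 and 342 at E12.5. The days did not overlap in either chamber. The difference was 2.51 ± 0.36 in ventricles (adjusted p = 5.81e-06), or 5.69-fold, and 2.15 ± 0.36 in atria (adjusted p = 7.65e-05), or 4.45-fold. Its second probe set gave 2.40 and 1.97. Egln1 also rose, by 0.88 ± 0.16 in ventricles (adjusted p = 0.000167) and 0.85 ± 0.16 in atria (adjusted p = 0.000408). Its second probe set gave 0.83 in atria but 0.40 in ventricles, which was not called (adjusted p = 0.157).

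Ndrg1 rose in both chambers as well. At E18.5 the ventricles had 1539, 1213 and 1620.2, against 339, 613 and 359.7 at E12.5. At E18.5 the atria had 1291, 1527 and 1266, against 470.4, 327 and 343 at E12.5. The difference was 1.74 ± 0.38 in ventricles (adjusted p = 0.000862) and 1.81 ± 0.38 in atria (adjusted p = 0.000818). All 5 of its probe sets were called in both chambers, and 1 of them changed more than either Egln3 probe set, by 2.64 in ventricles and 2.43 in atria. That probe set was dim at E12.5, averaging 61 in ventricles and 50.2 in atria. The group mean was highest at E16.5, at 1681 in ventricles.

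The secreted factors rose too. Adm had 337, 427 and 259 in E18.5 ventricles, against 112, 148 and 103 at E12.5, a difference of 1.36 ± 0.29 (adjusted p = 0.000595). It had 1071, 1221 and 1117 in E18.5 atria, against 501, 438 and 445 at E12.5, a difference of 1.27 ± 0.29 (adjusted p = 0.00161). So Adm rose in the chamber where it was low and in the one where it was high. The second Adm probe set rose less in ventricles, with mean log2 values of 8.83 at E18.5 and 8.13 at E12.5. In atria it had 9.79 and 8.42. Vegfa rose by 0.68 ± 0.18 in ventricles (adjusted p = 0.00603) and by 1.06 ± 0.18 in atria (adjusted p = 0.000134). The ventricular call was lost without ventricular array 3 of E12.5 (adjusted p = 0.0576).

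The metabolic and growth genes moved less. Pdk1 was higher at E18.5 by 0.62 ± 0.13 in ventricles (adjusted p = 0.000526) and 0.38 ± 0.13 in atria (adjusted p = 0.0271). The atrial call was lost without any 1 of 4 of the 6 arrays (E12.5 atrial array 1 or 2, E18.5 atrial array 1 or 3; adjusted p up to 0.0968). With its 4 probe sets averaged Pdk1 was called in neither chamber (0.25 and 0.29). Ddit4 was higher by 0.45 ± 0.15 in ventricles (adjusted p = 0.0231) and 0.48 ± 0.15 in atria (adjusted p = 0.0179). These calls were lost without ventricular array 1 or 3 of E12.5 or 2 of E18.5 (up to 0.159), and without atrial array 1 or 2 of E12.5 (up to 0.119). Ankrd37 rose by 0.92 ± 0.25 in ventricles (adjusted p = 0.00665). Its atrial difference was 0.27 ± 0.25 (adjusted p = 0.473). For Bnip3 the difference was 0.04 ± 0.14 in ventricles (95% interval -0.25 to 0.33) and 0.33 ± 0.14 in atria (adjusted p = 0.0938).

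Hif1a had 3402, 4271 and 3566 in E18.5 ventricles, against 5563, 5818 and 6078 at E12.5. It had 3684, 3014 and 3488 in E18.5 atria, against 4363, 4818 and 5382 at E12.5. Neither chamber showed overlap between the days. It fell by 0.64 in ventricles (-0.64 ± 0.10, adjusted p = 3.45e-05) and by 0.51 in atria (-0.51 ± 0.10, adjusted p = 0.000615). Of the other probe sets, that with a chamber difference of -0.11 also fell in both (-0.51 and -0.47). That with -0.58 fell in ventricles (-0.52, adjusted p = 0.0247) but gave 0.06 in atria (adjusted p = 0.846). That with -0.07 gave 0.36 in ventricles (adjusted p = 0.534) and -0.0047 in atria (adjusted p = 0.995). With the 4 probe sets averaged, the dim one included, Hif1a was called in neither chamber (-0.33, adjusted p = 0.0589, and -0.23, adjusted p = 0.199).

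**Figure D3:**
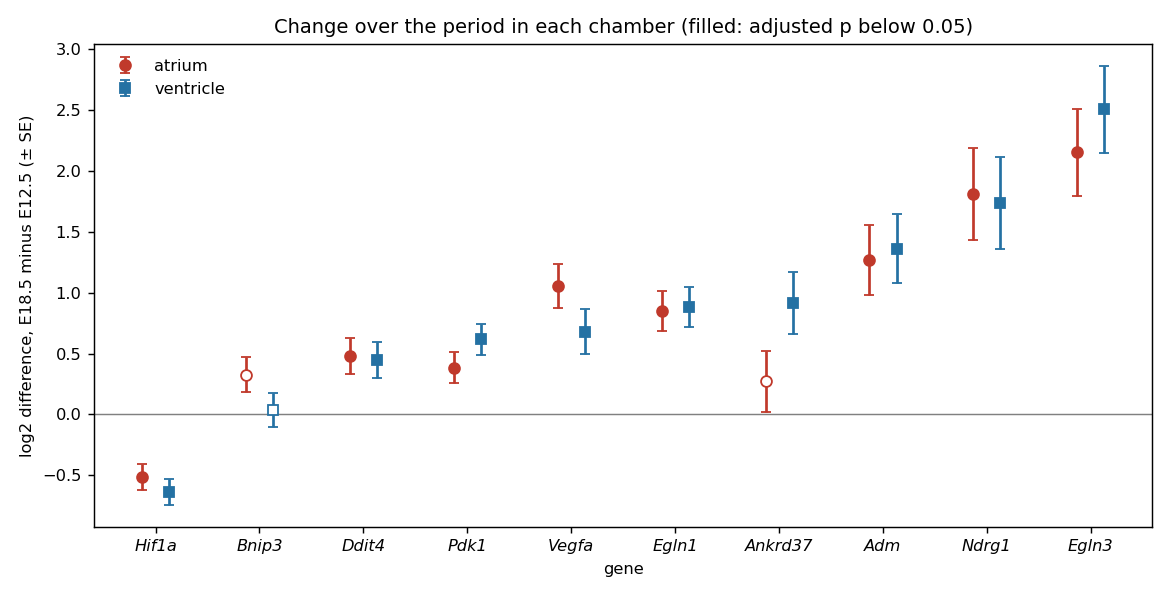
Log2 difference between E18.5 and E12.5 in atria (red circles) and ventricles (blue squares), with SE from the fit, filled where the adjusted p is below 0.05. Egln3 and Ndrg1 lie highest in both chambers, Hif1a lies below 0 in both, and Bnip3 is open in both.

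A moderated F test over the 5 ages called 8 of 10 genes in ventricles, all but Bnip3 (adjusted p = 0.757) and Ddit4 (0.0807), where 27.8% of all genes were called. Without ventricular array 1 or 3 of E12.5, Vegfa, Ankrd37 and Pdk1 were not called there (adjusted p up to 0.127, 0.0971 and 0.0816), and the lowest count was 5; Vegfa was also lost without 4 later arrays. In atria it also called 8, all but Pdk1 (0.111) and Ankrd37 (0.24), where 20.8% of all genes were called, and Ddit4 was lost without atrial array 1 or 2 of E12.5 (up to 0.163). Bnip3 was among those called in atria (adjusted p = 0.013), where its group means were 2879.8 at E12.5 and 2721 at E13.5, then 4126 at E14.5, with 3649 at E16.5 and 3615 at E18.5. The high E14.5 mean stands beside the high Irx4 on atrial arrays 1 and 2 of that day, and its part was not tested. The test of whether the change between E18.5 and E12.5 differed between atria and ventricles called 0 of the 10 genes by limma, where 4.57% of all genes were called. The largest of these differences was that of Ankrd37, -0.64 ± 0.36 (adjusted p = 0.343), with a 95% interval of -1.37 to 0.08. The intervals are wide, so that the changes in the chambers were not shown to differ and were not shown to be alike.

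At the days before the chambers were separated, Egln3 and Ndrg1 were compared between E11.5 and E10.5. Egln3 had 591, 589.8 and 554 at E11.5, against 326, 362 and 338 at E10.5, without overlap. Ndrg1 had 304, 406 and 302 at E11.5, against 179.7, 210.3 and 157 at E10.5, also without overlap. In the fit over all 36 arrays neither was called (0.73 ± 0.36, adjusted p = 0.406, and 0.83 ± 0.38, adjusted p = 0.363), and 0 of the 10 genes passed, where 1.51% of all genes did. Fitted on the 6 arrays of these days alone, Egln3 (adjusted p = 0.00367), Ndrg1 (0.0166), Egln1 (0.0408) and Ddit4 (0.0481) were called, all higher at E11.5. In that fit 1312 of all genes were called, against 196 in the fit over all arrays.

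From E11.5 to E12.5 the day and the dissection changed together and cannot be told apart. On the brightest probe sets, Adm was the only gene lower in E12.5 ventricles than in the E11.5 region, at -1.26 ± 0.29 (adjusted p = 0.0256), where 0.879% of all genes were lower. It had 112, 148 and 103 in the ventricles, against 308, 343 and 280.2 in the region. The call was lost without any of 5 of the 6 arrays (adjusted p up to 0.125). The second Adm probe set differed less, averaging 270 in the ventricles, against 329 in the region. With its probe sets averaged, Adm was not called (-0.78, adjusted p = 0.0977). In E12.5 atria Bnip3 was lower than in the region, at -0.82 ± 0.14 (adjusted p = 0.000986), Vegfa at -0.82 ± 0.18 (0.00878) and Ddit4 at -0.52 ± 0.15 (0.0431), where 2.88% of all genes were lower. Bnip3 had 2435, 3074 and 3131 in the atria, against 4900.2, 5102 and 5194 in the region. Vegfa was not called without region array 3 or atrial array 1 (up to 0.0604), nor Ddit4 without any of 5 of the 6 arrays (up to 0.175).

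In some groups the arrays differed in several of these genes together. In the E13.5 atria, array 2 had the highest value for 8 of the 10 genes. It had 934 for Egln3 and 1164 for Ndrg1, against 304 and 296 on array 1. In the E12.5 ventricles array 2 was highest for 9 genes, and in the E16.5 ventricles array 3 was highest for 9. In the E14.5 atria array 3 was lowest for 8, with 323 for Egln3 and 360.3 for Ndrg1, against 1001 and 979 on array 1. Atrial array 3 of E16.5, one of the arrays high in lung genes, was lowest for 9. Other groups were split. In the E14.5 ventricles arrays 1, 2 and 3 were highest for 4, 1 and 5 genes, and in the E12.5 atria for 4, 0 and 6. Vegfa and Egln3 had the same highest array in 10 of the 12 groups, as did Adm with Ankrd37 and Ankrd37 with Ddit4, while Adm and Bnip3 did in only 3. Hif1a shared its highest array with the other genes in 3 (Adm, Ankrd37 and Pdk1) to 6 groups (Egln1). The mean SD within groups was 0.43 on the log2 scale for Ndrg1 and 0.40 for Egln3, against 0.12 for Hif1a and 0.14 for Pdk1. These counts were not made over all genes, and what sets these arrays apart was not tested.

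**Figure D4:**
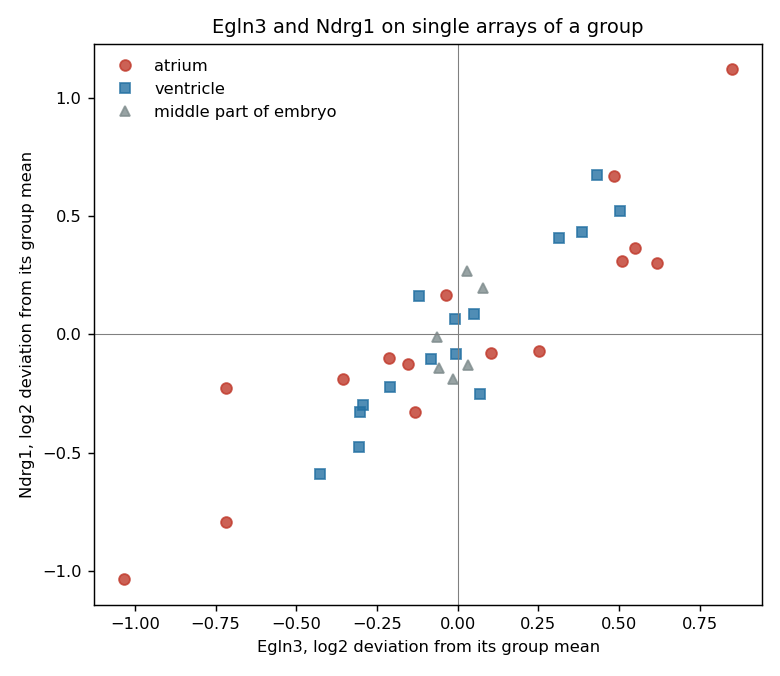
Deviation of each of the 36 arrays from its group mean in Egln3 (horizontal) and Ndrg1 (vertical), both on the log2 scale, for atria (red circles), ventricles (blue squares) and the middle part of the embryo (grey triangles). Atrial and ventricular arrays high in Egln3 for their group were mostly high in Ndrg1 as well, while the middle part arrays lie near 0 in Egln3.

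Over the 12 group means, which share their arrays, Egln1 and Egln3 correlated at 0.959, Vegfa and Pdk1 at 0.928, and Egln3 and Ndrg1 at 0.909. Adm was at -0.72 with Bnip3, -0.508 with Ankrd37, -0.374 with Pdk1, -0.367 with Vegfa and -0.0929 with Ddit4, and at 0.332 with Ndrg1, 0.209 with Egln3 and 0.0664 with Egln1. Hif1a was at -0.753 with Ndrg1, -0.741 with Adm, -0.724 with Egln3 and -0.564 with Egln1, but at -0.33 with Ddit4, -0.182 with Vegfa, -0.167 with Pdk1, 0.0335 with Ankrd37 and 0.363 with Bnip3. Among all genes tested, the pattern most like that of Vegfa was that of Ahnak (0.984), that most like Adm was Xbp1 (0.977), that most like Egln3 was Lrp10 (0.986) and that most like Bnip3 was Mfge8 (0.985). For Egln1 it was Arhgap35 (0.972), for Ndrg1 Acaa2 (0.981), for Ankrd37 Denn2b (0.970), for Pdk1 Thoc7 (0.965), for Hif1a Nvl (0.975) and for Ddit4 Mef2d (0.928).

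Other genes of the pathway were taken from a list of 65 regulators and targets of HIF, of which 59 were tested. Over the mean of the 5 ages, 26 (44.1%) were lower in atria, where 22.6% of all genes were, and 12 (20.3%) were higher, where 24% of all genes were, so that the higher count is near the background. The other 21 were not called, and the median difference was -0.13. The 6 called genes with the largest difference were Slc16a3, which exports lactate (-1.28 ± 0.11), Lox, which cross-links collagen and elastin (1.15 ± 0.13), the mitochondrial protein Higd1a (-0.81 ± 0.06), the first glycolytic enzyme Hk2 (-0.80 ± 0.05), the aldolase Aldoc (-0.72 ± 0.11) and the transcription factor Bhlhe40 (-0.69 ± 0.21). The adjusted p was 2.17e-13 for Hk2 and 0.00817 for Bhlhe40, with the others between. The glycolytic enzymes Hk1 (-0.41), Pfkl (-0.43), Tpi1 (-0.36) and Ldha (-0.39) were also called lower, while the glucose transporter Slc2a1 was called higher in atria (0.21 ± 0.07); these 5 were picked after their values were seen. Hk2 and Slc16a3 were called lower at each of the 5 ages.

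At single ages 14 genes of the list were lower and 1 higher in atria at E12.5, while E13.5 and E18.5 each had 16 lower and 3 higher, E14.5 had 5 and 2, and E16.5 had 9 and 2. The lower share was 23.7% of the list at E12.5, 27.1% at E13.5 and E18.5, 8.47% at E14.5 and 15.3% at E16.5, above the share of all genes each time (6.07%, 7.81%, 9.79%, 2.37% and 8.7% for E12.5, E13.5, E18.5, E14.5 and E16.5), and the higher share, 1.69% to 5.08%, was below it. Besides the 6 genes above, the largest called differences were those of Stc2 (-0.96), Gbe1 (-0.79), Fam162a (-0.73) and Stc1 (-0.69) at E12.5, Angpt2 (1.01) and Stc2 (-0.74) at E14.5, Arnt2 (1.12), Sesn2 (-0.79) and Pfkfb3 (-0.68) at E16.5, and Cox4i2 (-0.78) at E18.5. Between E18.5 and E12.5, 13 genes (22%) rose and 9 (15.3%) fell in ventricles, and 13 (22%) rose and 7 (11.9%) fell in atria. Of all genes 14.7% rose in each chamber, while 16.9% fell in ventricles and 12.8% in atria, so that the falls are near the background. The median differences were 0.01 and 0.03. Bhlhe40 (1.81 in ventricles, 2.69 in atria), the mitochondrial subunit Ndufa4l2 (1.66 and 2.65) and the glycogen branching enzyme Gbe1 (0.91 and 1.36) rose in both chambers. Slc2a1 (-1.11 and -1.18) and Arnt2 (-1.22 and -1.09) fell in both, Angpt2 rose in ventricles (0.88) and Trib3 fell in atria (-1.71).

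Markers of other cell types moved with the same comparisons. Over the mean of the 5 ages 24% of all genes were higher and 22.6% lower in atria. In atria, 6 of 6 epicardial genes, 6 of 7 fibroblast and matrix genes, 5 of 6 erythroid genes and 5 of 7 macrophage genes were higher. Of 9 cardiomyocyte genes 4 were lower and 1 was higher. Other lists were split, with 3 higher and 3 lower of 8 endothelial and endocardial genes, and 2 higher and 1 lower of 3 smooth muscle genes. Among 4 neural genes 1 was higher and 2 lower, and among 10 immediate early and stress genes 1 was higher and 3 lower. Of 6 liver genes 2 were higher and 0 lower, and so were 2 and 0 of 6 foregut and lung genes. The summed intensity of the cardiomyocyte genes had a median of 75585 on the atrial arrays, range 66675 to 124920, against 96927 on the ventricular arrays, range 91485 to 142000. The fibroblast sum had a median of 44757 in atria, range 25594 to 59838, against 34390 in ventricles, range 20830 to 43774. The erythroid sum averaged 1481 in E18.5 ventricles, against 46238 in E12.5 ventricles, and 3743 in E18.5 atria, against 58022 in E12.5 atria, and all 6 tested erythroid genes fell in both chambers. Between the same days 6 of 7 fibroblast and matrix genes rose in ventricles (median 0.925), and in atria 4 rose and 1 fell (median 0.625). Of 10 immediate early and stress genes 5 rose in atria (median 0.711) and 1 rose in ventricles (median -0.0183). Of 8 endothelial and endocardial genes 3 rose in each chamber and 1 fell in ventricles. Of 7 macrophage genes 3 rose in each chamber, and of 3 smooth muscle genes 2 fell in each. Of 9 cardiomyocyte genes 3 rose in ventricles and 1 rose in atria. Of 6 epicardial genes 1 rose and 2 fell in each chamber. Of 6 liver genes 1 rose and 2 fell in atria. Of 6 foregut and lung genes 1 rose in atria, and of 4 neural genes 1 rose in ventricles. Between these days 14.7% of all genes rose in each chamber, while 16.9% fell in ventricles and 12.8% in atria. The part of these cells in the hypoxia gene differences was not tested. Without the 3 atrial arrays high in lung genes, 9 of the 10 genes were still called over the mean of the 5 ages, with Adm at 1.74, Vegfa at -0.82 and Bnip3 at -0.72. Without the 2 arrays high in liver genes 9 were called as well.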

How the data were processed

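RNA of 36 samples in 12 groups of 3 was hybridised to 1-colour Affymetrix mouse arrays. The deposited values are linear intensity per probe set. How they were made is not stated in the labels; every array has a 2% trimmed mean of 500, so the deposited values are on a common level, and no further normalization was applied. Array medians were 143.7 to 210.8, and the number of arrays limits the precision. The 64 control probe sets were left out. Of the other 45037, 34945 had 1 gene symbol in the platform annotation, 932 had several and 9160 had none.

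Values were tested as log2(intensity + 17), a scale that understates changes of dim genes, with limma 3.58.1 in R 4.3.3. Probe sets above 171.8, the median, on at least 3 arrays were kept. One model with 12 group means was fitted over all 36 arrays, with an intensity trend in the variance, and p-values were adjusted by Benjamini-Hochberg over all 27256 probe sets; a gene was called at an adjusted p below 0.05. The probe set with the highest mean stood for a gene. Groups came from the sample labels.

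All 10 genes were named with their probe sets; of the other pathway genes, the 6 called with the largest difference in each comparison were named, plus genes marked in the text. The members and lists were chosen with earlier results of these data known. Alternatives covered normalization, pseudocount, filter, variance trend, array weights, probe set choice, replicate block, fits on only the groups compared and leaving out arrays.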

Additional observations from a re-analysis of the deposited data

How the results depend on the processing

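Leaving out the 3 atrial arrays high in lung genes, the 2 high in liver genes, E14.5, or E14.5 with 3 other atrial arrays with Irx4 above 100 was chosen after seeing the data; the other alternatives were not. Of 1696 single-gene values recomputed, 1583 kept direction and side of the threshold, 56 lost and 28 gained a call, and 29 changed sign, of which 0 were called by limma. The refits that each left out a single array are not in these counts. Those refits gave further lost and gained calls and sign changes, which are described separately. The causes were not tested. The day and the dissection, and the method behind the deposited values, limit what the arrays can show.

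The number of the 10 genes called at E14.5 was 1 with median centring and 0 when only the groups compared were fitted, against 4. At E16.5 it was 3 with median centring and 3 without the 3 arrays high in lung genes, against 5. At E12.5 it was 7 with array weights and 5 with the mean of probe sets, against 3. For E12.5 atria and the E11.5 region it was 8 with array weights, against 3, and for E12.5 ventricles and the region 0 with the mean of probe sets, against 1. For E11.5 and E10.5 it was 4 when only the groups compared were fitted, against 0. For the F test over ages in atria it was 4 in that setting, against 8. The calls over all genes moved too. With array weights they were 3601 at E12.5, against 1464, and 3110 for E12.5 atria and the region, against 599. When only the groups compared were fitted they were 19 at E14.5, against 971, 1312 for E11.5 and E10.5, against 196, and 841 for the F test in atria, against 2693. With median centring they were 813 at E14.5 and 2086 at E16.5, against 971 and 2548.

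Without 1 array the number called was 9 to 9 for the mean of 5 ages, 3 to 5 at E12.5, 5 to 8 at E13.5, 1 to 4 at E14.5, 3 to 5 at E16.5 and 4 to 6 at E18.5. Of the 10 genes, 7 to 9 were called for the change with age in ventricles and 6 to 8 in atria. For the difference of these changes and for E11.5 and E10.5 the number was 0 to 0 each. It was 0 to 1 for E12.5 ventricles and the region, and 1 to 3 for E12.5 atria and the region. For the F tests it was 5 to 9 in ventricles and 7 to 9 in atria. Over all genes the calls with age were 3060 to 4108 in ventricles and 2166 to 3964 in atria. They were 254 to 1154 for the difference and 40 to 130 for E11.5 and E10.5. Against the region they were 52 to 106 for E12.5 ventricles and 254 to 795 for E12.5 atria. The F tests called 2853 to 3938 genes in ventricles and 1734 to 3314 in atria.

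Values that changed sign were, with quantile normalization, Bnip3 in ventricles with age (-0.040), Egln1 in the difference of changes (0.025), Ankrd37 at E11.5 and E10.5 (-0.039) and Egln1 in E12.5 ventricles and the region (0.0039). With median centring they were Ddit4 at E14.5 (0.079), Ndrg1 (0.017) and Hif1a (0.067) at E16.5, Ndrg1 (-0.039) and Ddit4 (-0.078) in the difference of changes, Ankrd37 at E11.5 (-0.049), and Pdk1 (-0.054) and Hif1a (-0.020) in E12.5 ventricles and the region. With a pseudocount of 68 it was Adm in the difference of changes (0.085). With array weights they were Pdk1 in E12.5 ventricles (-0.051) and Ndrg1 in E12.5 atria (-0.011), both against the region. With the mean of probe sets they were Ndrg1 at E12.5 (0.12), Adm (0.29), Egln1 (0.20), Ndrg1 (-0.35) and Pdk1 (0.034) in the difference of changes, Adm (-0.090), Egln1 (-0.11) and Hif1a (0.073) at E11.5, and Egln1 (0.23) and Egln3 (0.0034) in E12.5 ventricles and the region. Without the arrays high in lung genes they were Ndrg1 at E16.5 (0.020) and Egln1 in the difference of changes (0.022), and without those high in liver genes Ndrg1 (-0.024) and Ddit4 (-0.089) in that same difference.

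Without 1 array, Ndrg1 ranged from -0.32 to 0.10 at E12.5, -0.52 to 0.34 at E14.5 and -0.26 to 0.12 at E16.5. Ankrd37 (-0.50 to 0.062) and Ddit4 (-0.15 to 0.089) at E14.5, Hif1a at E16.5 (-0.16 to 0.054) and Bnip3 in ventricles with age (-0.12 to 0.12) also crossed 0. So did the difference of changes for Adm (-0.27 to 0.076), Egln1 (-0.21 to 0.10), Ndrg1 (-0.19 to 0.23) and Ddit4 (-0.16 to 0.16), the E11.5 difference for Adm (-0.0067 to 0.14) and Ankrd37 (-0.082 to 0.087), and E12.5 ventricles against the region for Vegfa (-0.014 to 0.32), Egln1 (-0.18 to 0.10) and Pdk1 (-0.17 to 0.13).

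With the replicate number as a block 9 genes were called over the mean of 5 ages, and 1 call was lost, Ddit4 in E12.5 atria against the region (adjusted p = 0.0538). Whether the numbers pair the samples was not settled. Deviations of arrays with the same number had a median correlation of -0.0016, against 0.0047 for different numbers. That median includes arrays of different ages, which cannot share embryos. Only the 15 atrium and ventricle pairs of the same age and number bear on pairing. Their correlations lay between -0.335 and 0.159, and 1 exceeded 0.1. These are deviations from the means of small groups, so low values do not exclude pairing.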
